A study of Homo sapiens with 6 samples.

Results

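DNA replication licensing and fork genes are the set described here: 57 genes, chosen by name from the textbook machinery that loads the replicative helicase, fires origins, copies both strands, supplies deoxynucleotides and rebuilds chromatin behind the fork. They were found by symbol in the deposited expression tables, where all 57 of them stood among 20667 gene symbols. U2932, an established human cell line of ABC-DLBCL, the activated B-cell type of diffuse large B-cell lymphoma, was the only cell model. ROCK2 KD cells carried a lentiviral pLKO.1 shRNA against ROCK2, a serine-threonine kinase downstream of RhoA, and Scr shRNA cells carried a scrambled shRNA in the same vector. Both also carried the vector's puromycin resistance and tGFP cassettes and were made into stable lines by cell sorting and puromycin. ROCK2 was targeted by 1 shRNA, so that effects on other transcripts cannot be told apart from those of ROCK2. RNA-seq libraries numbered 1, 2 and 3 were made from each line, 6 in all. The sources used here do not say that the numbered libraries were separate transductions or cultures, so the p values measure the spread between these libraries, which may be technical.

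Replication origins are licensed in G1 phase, when the origin recognition complex (ORC), CDC6 and CDT1 load the MCM2-7 ring onto DNA, and geminin holds CDT1 in check afterwards so that no origin is licensed again. In S phase the kinase CDC7-DBF4, CDC45, the GINS complex and MCM10 turn the loaded ring into a moving helicase, and polymerases alpha, delta and epsilon copy the strands behind it with the clamp PCNA. Most of these genes are transcribed at the G1/S transition under E2F factors, and their RNA is a common readout of how many cells of a lymphoma line are cycling. In bulk RNA, fewer cells in S phase and less RNA per cell cannot be told apart.

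The values are FPKM (fragments scaled to transcript length and to library size), so that levels of different genes can be set side by side. Differences are given as log2(scaled FPKM + 1), ROCK2 KD minus Scr shRNA, after all 6 libraries were scaled to a common level, and a pair means the ROCK2 KD and the Scr shRNA library of the same number. The fitted difference comes from limma with the replicate number as a block over the 10526 genes that reached an FPKM of 1 in 3 or more libraries, a filter that all 57 genes passed. ROCK2 itself was measured at an FPKM of 2.75, 5.35 and 1.26 in ROCK2 KD 1, 2 and 3 and of 4.32, 7.21 and 5.78 in Scr 1, 2 and 3, lower in ROCK2 KD in all 3 pairs and most so in the third (log2 difference of -1.52). All 7 B cell markers reached an FPKM of 1, with a summed FPKM of 470 to 1572 in ROCK2 KD and 336 to 1602 in Scr shRNA, and none of the T cell, NK cell, myeloid, fibroblast or erythroid markers did, while of the epithelial markers only EPCAM was above it (2.59 to 5.00). FPKM do not state the reads behind a value. The relative depth, read from the smallest values, was 71.4% to 90.8% of that of Scr 3 in the ROCK2 KD libraries and 73.5% and 92.7% in Scr 1 and 2.

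Promoter letters are shown first, for members whose transcription E2F is known to drive. RefSeq promoters were at hand for 51 of the 57 genes, and the 250 bases before the start were read for the E2F letters TTTCCCGC, TTTCGCGC, TTTGCCGC and TTTGGCGC, for CCAAT (the NF-Y box) and for TTTGAA (the CHR element of late cell cycle genes), on both strands. None of these strings contains another, although neighbouring matches can overlap. The E2F letters were in 14 of the 51 promoters (27.5%), against 4.80% of the 7958 promoters of tested genes and 2.79% of all 27305. The windows below were placed on GRCh37 by exact match and are written 5′ to 3′ on the gene's strand, with the E2F match in capitals (GCGGGAAA and GCGCCAAA are matches on the other strand).
CDT1, chr16:88870152-88870179 (+), 28 to 35 bases before the start: cagggcgcccGCGGGAAAtttggcggga
TYMS, chr18:657604-657631 (+), 32 to 39 bases before the start: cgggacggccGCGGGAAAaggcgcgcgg
GINS2, chr16:85722574-85722601 (-), 24 to 31 bases before the start: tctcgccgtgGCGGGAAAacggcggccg
PCNA, chr20:5107310-5107337 (-), 52 to 59 bases before the start: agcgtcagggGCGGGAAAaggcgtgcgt
UHRF1, chr19:4909489-4909512 (+), 7 to 14 bases before the start: ccgagttttcGCGGGAAAaaaatc
LIG1, chr19:48673698-48673725 (-), 107 to 114 bases before the start: cttcacccctTTTCCCGCcctcctccca
MCM7 (the nearer of 2 matches, the other lying 180 to 187 bases before the start), chr7:99699021-99699039 (-), 2 to 9 bases before the start: gggggcgacgTTTCGCGCc
POLE, chr12:133263929-133263956 (-), 11 to 18 bases before the start: gggtgggagcGCGCCAAAtttctcccct
POLA1, chrX:24711888-24711915 (+), 130 to 137 bases before the start: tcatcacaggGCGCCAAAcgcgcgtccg

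CCAAT stood in 29 of the 51 promoters (56.9%), against 36.8% of the promoters of tested genes, and the CHR letters in 2 (3.92%), RRM1 and ASF1B, against 8.33%. Mitosis genes read the same way held the E2F letters in 2 of 24 promoters (8.33%) and the CHR letters in 14 (58.3%). A match is a description of letters, not a site that was shown to be bound. The promoters of RFC4, GINS3, CLSPN, MCM2, TIPIN and RPA1, which are described below for their differences, held no E2F letters in this window. The 14 genes with the E2F letters had a median log2 difference of -0.05, with 12 lower in ROCK2 KD, and the 37 without them had a median of -0.09, with 29 lower.

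Most of the 57 genes were a little lower in ROCK2 KD, and no gene passed the test. The fitted difference was below 0 for 47 of 57 (82.5%), against 51.3% of all genes tested, with a median of -0.08 against -0.00 for all genes. 13 genes were lower in all 3 pairs (22.8%, background 12.3%) and 3 were higher in all 3 (5.26%, background 12.7%). At an unadjusted p under 0.05 from limma there were 2 genes, CDT1 and RFC4, both lower, out of 57, against 5.39% of all genes (2.3% of all genes lower, 3.09% higher). At an adjusted p under 0.05 from limma there were 0 of 57, as there were 0 of 10526 over all genes (percent called 0). When ComBat on the replicate numbers was followed by limma without the block, CDT1, MCM2 and RFC4 had an adjusted p under 0.05, or 5.26% of the set against 2.82% of all genes (1.3% of all genes lower), but that fit does not count the degrees of freedom spent on the replicate numbers, and its p values are too small. The scaled FPKM of the groups overlapped for every one of the 57, where 2.14% of all genes did not overlap. The 57 genes share libraries and are transcribed together, so their directions are not separate observations.

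The lower values came from the third pair and in part from the second. Taken pair by pair, the median difference of the 57 genes was 0.04 in pair 1, -0.06 in pair 2 and -0.22 in pair 3, and the number below 0 was 23, 36 and 51 (40.4%, 63.2% and 89.5%, where all genes gave 48%, 51.3% and 50.1%). Without replicate 3 the fit gave 26 of 57 lower (45.6%, background 50.1%) and a median of 0.01. In that fit the role group medians were also at or above 0 for MCM proteins (0.03), origin firing (0.02), polymerases (0.00), clamp and loader (0.00), single-strand binding (0.02), fork protection (0.05) and deoxynucleotide supply (0.09), and below 0 for licensing loaders (-0.02), lagging strand processing (-0.04) and chromatin copying (-0.02), so the medians below 0 given by role further on rest largely on that replicate. Pair 3 is also where ROCK2 differed most and where ROCK2 KD 3 stood apart in CD22, a surface protein of B cells, at an FPKM of 29.1 against 85.5 in Scr 3, while CD22 was higher in ROCK2 KD in pairs 1 and 2. Of the 7 B cell markers, 5 were lower in pair 3 (median -0.26) and 0 in pair 1 (median 0.45). The part of either in the replication genes was not tested. Nor did the genes keep their order from pair to pair, since across the 57 the differences of pairs 1 and 3 had r = -0.17 and those of pairs 2 and 3 had r = 0.34 (a description over genes that share libraries).

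**Figure D1:**
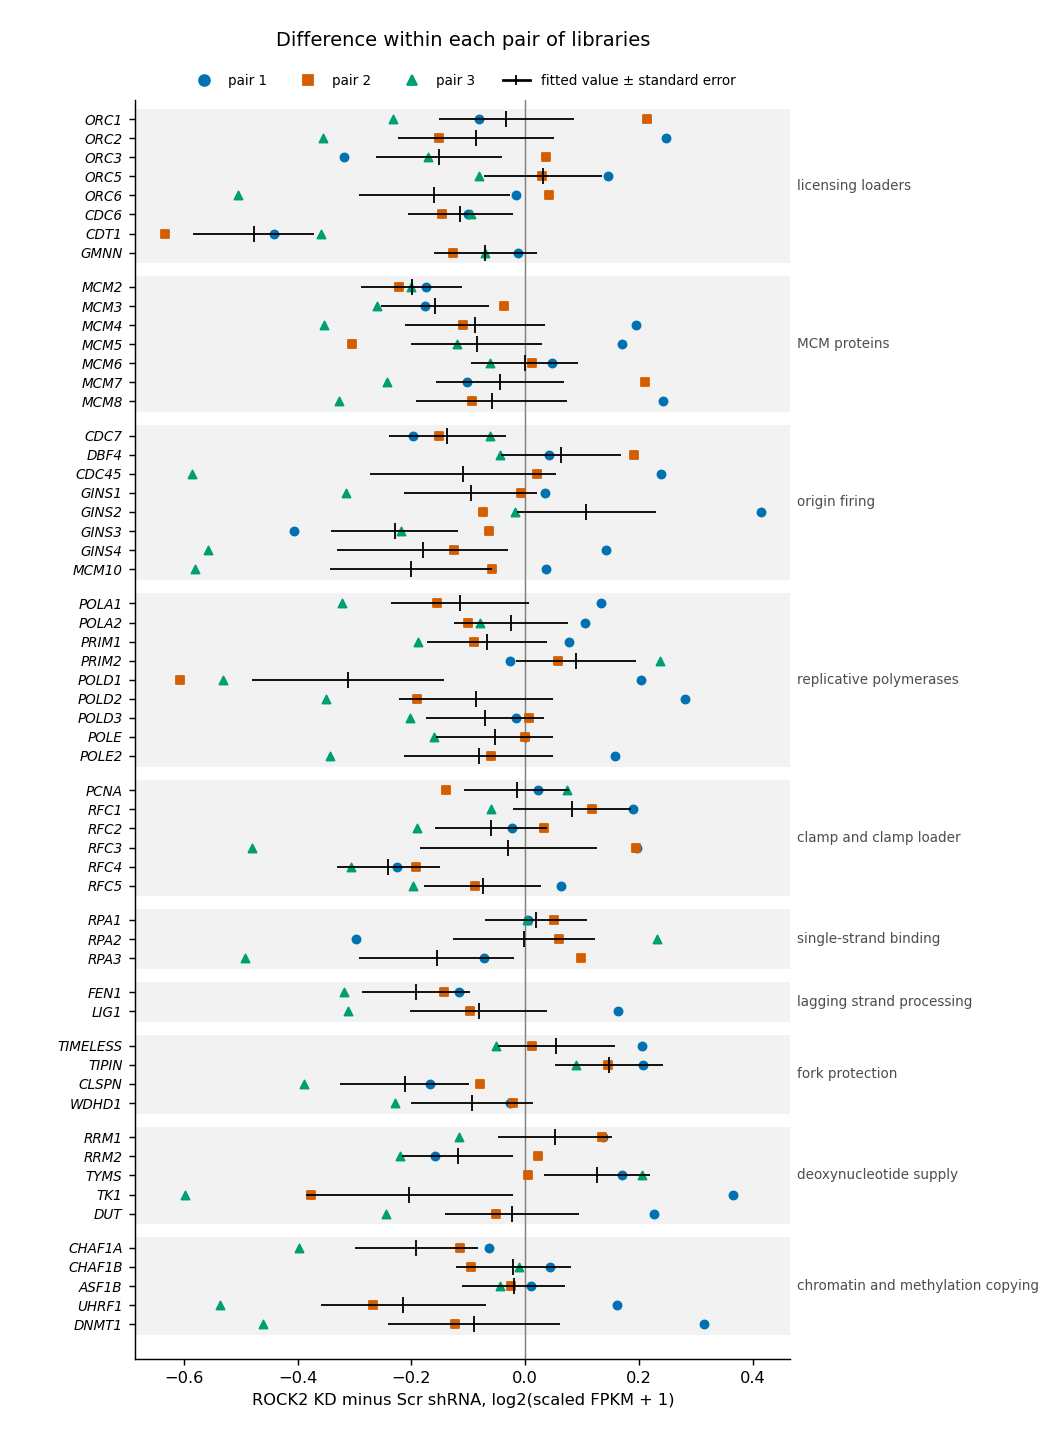
Difference between ROCK2 KD and Scr shRNA for each of the 57 genes, in log2(scaled FPKM + 1) on the horizontal axis, with genes grouped by role on the vertical axis. Coloured points are the 3 pairs and black bars the limma estimate with its standard error; the points of pair 3 lie to the left of 0 for 51 genes and those of pair 1 for 23, and CDT1 lies to the left in all 3 pairs.

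The licensing factors held the gene with the largest difference of the set. Of 8 loaders and inhibitors, 7 were lower, with a median of -0.10, and all 8 were lower in pair 3. CDT1, which brings the MCM ring to ORC and CDC6, is at chr16:88870197-88875666 of GRCh37 (all gene positions here are in that build). In ROCK2 KD 1, 2 and 3 its FPKM was 11.6, 13.2 and 26.1, and in Scr 1, 2 and 3 it was 16.02, 21.1 and 33.2, or 17.0 ± 7.92 (SD, n = 3) against 23.5 ± 8.83. It was the lower of the pair each time, by -0.44, -0.63 and -0.36, yet on the scaled values ROCK2 KD 3 (21.8) was above Scr 2 (17.1), so the groups overlapped. The limma estimate was -0.48 (standard error 0.11, unadjusted p = 0.00299, adjusted p = 0.811). With each replicate left out in turn it stayed between -0.53 and -0.40. CDT1 is among the genes that the study singled out on these same samples, and its place here is not independent evidence.

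Geminin, encoded by GMNN, binds CDT1 and blocks relicensing. GMNN was at 40.9, 110 and 95.9 in ROCK2 KD and at 41.3, 120 and 99.2 in Scr shRNA, lower in each pair by at most 0.13 on the log2 scale. Geminin RNA was above CDT1 RNA in all 6 libraries, by 2.58- to 8.33-fold, and the ratio of GMNN to CDT1 was larger in ROCK2 KD in every pair, by 1.37-, 1.47- and 1.23-fold. That follows CDT1, since GMNN itself differed little.

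CDC6, the ATPase that joins ORC at the origin, was at 23.2, 58.6 and 52.0 in ROCK2 KD and at 24.9, 65.1 and 54.8 in Scr shRNA. It was lower in all 3 pairs by a similar step, -0.10, -0.15 and -0.09, within ranges of levels that overlapped. ORC1, the subunit of ORC that is made and destroyed in each cycle, was at 11.6, 41.6 and 25.1 in ROCK2 KD and at 12.3, 35.7 and 29.2 in Scr shRNA, and its direction was not shared: it was higher in pair 2 and lower in pairs 1 and 3. The other ORC subunits of the set ranged from an FPKM of 6.96 (ORC2 in Scr 1) to 48.5 (ORC6 in ROCK2 KD 2). ORC4, kept in another list, was lower than all of these (1.42 to 2.54) and is not counted here. ORC6, the smallest subunit, was the highest of the 5 ORC genes of the set in 6 of 6 libraries (25.6% to 32.1% of their summed FPKM). ORC2 was the lowest of these 5 in 6 of 6 (11.7% to 15.4%). ORC3 and ORC5, core subunits of the ring, lay between them, and ORC5 was the 1 loader with a fitted difference above 0 (0.03).

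All 7 genes of the MCM role group, MCM2 to MCM8, had a fitted difference below 0, with a median of -0.09 and a range from -0.20 to -0.00. MCM10 is counted under origin firing, and MCM9, kept in another list, had a fitted difference of 0.09. MCM2, a subunit of the MCM2-7 helicase, is at chr3:127317253-127341279. Its FPKM was 56.1, 133 and 135 in ROCK2 KD and 63.4, 156 and 153 in Scr shRNA. It was lower in ROCK2 KD in each pair by nearly the same step, -0.18, -0.22 and -0.20, while libraries numbered 1 were far below the rest in both groups, so that the groups overlapped. The limma estimate was -0.20 (standard error 0.09, unadjusted p = 0.0592, adjusted p = 0.909).

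MCM7 was at 94.0, 225 and 161 in ROCK2 KD and at 101, 195 and 188 in Scr shRNA, higher in ROCK2 KD only in pair 2. MCM3, another subunit, was lower in all 3 pairs, while MCM4 and MCM5 were higher in pair 1 and lower in pairs 2 and 3, and MCM6 differed by at most 0.06 in any pair. The subunits of the helicase join in equal numbers, but their RNA did not. MCM7 was the highest of MCM2 to MCM7 in 6 of 6 libraries, with 22.1% to 28.0% of their summed FPKM, and MCM6 the lowest in 6 of 6, with 5.31% to 6.65%, and the ratio of MCM7 to MCM6 kept between 3.87 and 4.59. MCM8, a relative that works in recombination rather than in the licensed ring, was lower than any of these (7.40 to 28.2).

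**Figure D2:**
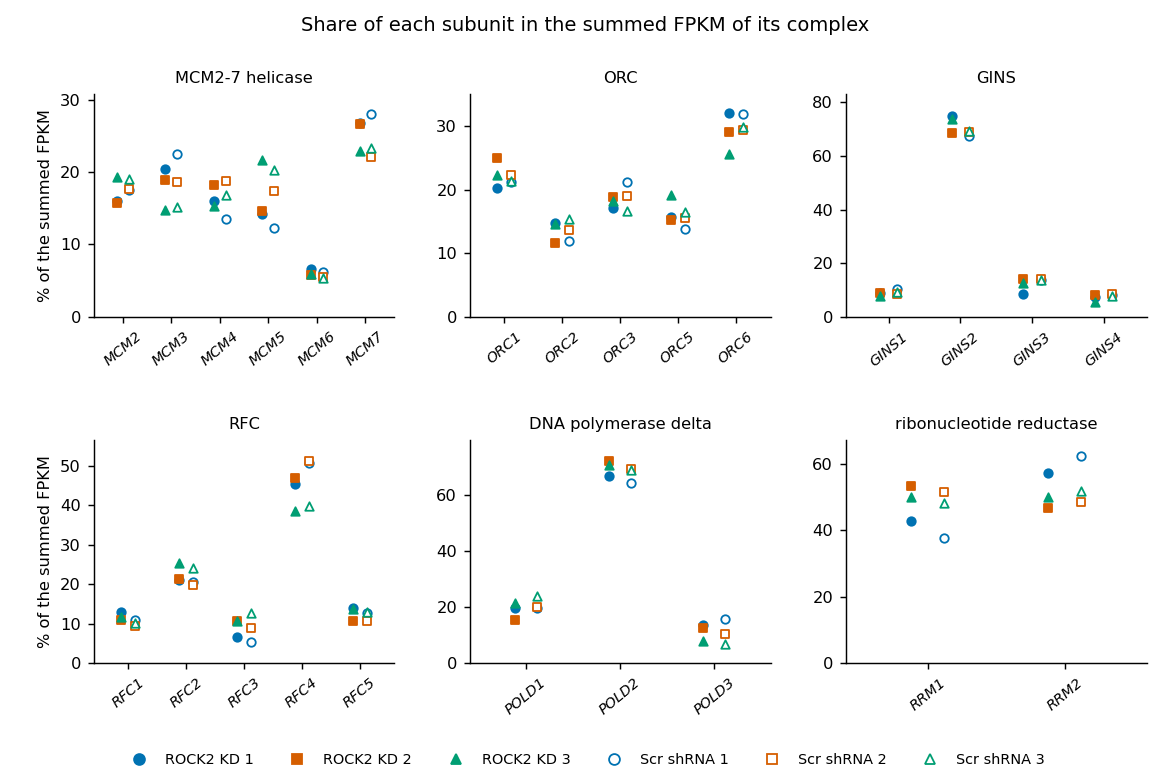
Share of each subunit in the summed FPKM of the genes of the set in its complex, in percent on the vertical axis. Subunits are on the horizontal axis, with 1 panel per complex. ORC4 and POLD4, kept in another list, are not in the sums. Filled points are ROCK2 KD libraries and open points Scr shRNA libraries, coloured by replicate number; MCM7, ORC6, GINS2, RFC4 and POLD2 are the highest of their complex in all 6 libraries.

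Origin firing genes had a median difference of -0.12, with 6 of 8 lower and all 8 lower in pair 3. GINS3, a subunit of the 4-part GINS ring that joins CDC45 and MCM into the active helicase, is at chr16:58328984-58440051. It was at an FPKM of 5.17, 25.03 and 19.2 in ROCK2 KD and 7.07, 26.2 and 22.2 in Scr shRNA. It was lower in every pair, by -0.41, -0.06 and -0.22, with the largest step in the pair of lowest level. limma gave -0.23 (standard error 0.11, unadjusted p = 0.0804, adjusted p = 0.944).

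GINS2 went another way, at 45.9, 122 and 112 in ROCK2 KD and 34.3, 128 and 111 in Scr shRNA. It was higher in ROCK2 KD in pair 1 by 0.41 and within 0.08 in the other two, and without replicate 1 the fitted difference changed sign, from 0.11 to -0.05. GINS2 made up 67.6% to 75.1% of the summed FPKM of the 4 GINS genes in the 6 libraries, and GINS4 was the lowest in 6 of 6 (5.52% to 8.51%). CDC45, the helicase partner of GINS, was at 14.6, 48.5 and 26.2 in ROCK2 KD and 12.3, 47.9 and 39.3 in Scr shRNA, so that only pair 3 put it lower in ROCK2 KD (-0.59). MCM10, which helps the helicase to open, and GINS4 were also lowest in pair 3 (-0.58 and -0.56) and above 0 in pair 1 (0.04 and 0.14).

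DBF4, the activating subunit of the CDC7 kinase, was at 7.19, 18.7 and 18.9 in ROCK2 KD and 6.97, 16.2 and 19.2 in Scr shRNA, with a fitted difference of 0.06 that changed sign without replicate 2. CDC7, the kinase that phosphorylates MCM proteins, was lower in all 3 pairs (-0.20, -0.15 and -0.06) at 6.41 to 14.7. DBF4 stood above CDC7 in 5 of 6 libraries.

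Polymerase genes were lower for 8 of 9, with a median of -0.07. POLD1, the catalytic subunit of polymerase delta on the lagging strand, was at an FPKM of 15.7, 25.6 and 37.5 in ROCK2 KD and 13.6, 39.7 and 53.8 in Scr shRNA. It had the largest pair differences of the 9 polymerase genes of the set, -0.61 and -0.53 in pairs 2 and 3, but 0.20 in pair 1. limma gave -0.31 (standard error 0.17, unadjusted p = 0.109, adjusted p = 0.957), and without replicate 2 the estimate was -0.16 and without replicate 1 it was -0.57. POLD1 is also among the members richest in G and C (63.9%, with CDT1 at 64.3% and TK1 at 62.8%), and its estimate after each library was corrected for GC content was -0.21.

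POLA1, the catalytic subunit of the polymerase that makes primers with primase, was at 9.08, 23.7 and 19.5 in ROCK2 KD and 8.22, 26.5 and 24.3 in Scr shRNA, higher in ROCK2 KD in pair 1 and lower in the other two. POLE, the leading strand polymerase, was level in pairs 1 and 2, with 9.93, 19.6 and 13.1 in ROCK2 KD and 9.93, 19.6 and 14.6 in Scr shRNA. Its count among the genes lower in all 3 pairs therefore rests on pair 3, the other differences being -0.00. POLD2, an accessory subunit of polymerase delta, was the highest polymerase gene of the set (43.99 to 156). It held 64.3% to 72.1% of the summed FPKM of POLD1, POLD2 and POLD3. POLD3, another accessory subunit, was the lowest of these 3 genes in 6 of 6 libraries. The subunits POLD4 (20.4 to 111) and POLE3 (44.3 to 133), kept in another list, are not counted here. POLE2, an accessory subunit of polymerase epsilon, had the lowest level of all 57 (2.51 to 8.31). The rest were POLA2, PRIM1 and PRIM2, the accessory subunit of alpha and both subunits of primase. PRIM2 was the 1 polymerase gene of the set with a fitted difference above 0 (0.09).

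The clamp and its loader were lower for 5 of 6, with a median of -0.04. RFC4, a small subunit of replication factor C, which opens the clamp and sets it on DNA, is at chr3:186507669-186524847. It was at an FPKM of 53.0, 136 and 81.1 in ROCK2 KD and 62.0, 156 and 99.0 in Scr shRNA, or 90.1 ± 42.3 (SD, n = 3) against 106 ± 47.2. The ROCK2 KD library was the lower of each pair by -0.23, -0.19 and -0.31, and the groups overlapped because the libraries of the 3 numbers lay so far apart. limma gave -0.24 (standard error 0.09, unadjusted p = 0.0332, adjusted p = 0.898), between -0.27 and -0.20 with each replicate left out. RFC4 exons overlap those of EIF4A2 on the other strand, and without knowing whether strand was used, reads of both genes cannot be told apart.

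PCNA, the sliding clamp, had the highest level of all 57 genes and ranked above 98.4% of genes tested. It was at 146, 342 and 352 in ROCK2 KD and 144, 377 and 329 in Scr shRNA, with no shared direction and a fitted difference of -0.01 (standard error 0.09). The annotation holds 3 pseudogenes named after PCNA, whose reads the deposited values may share. RFC4 was the highest of the 5 loader genes in 6 of 6 libraries (38.6% to 51.1% of their sum). RFC3, another small subunit, was lower in ROCK2 KD only in pair 3 (-0.48 against 0.20 and 0.19), and RFC1, the large subunit, RFC2 and RFC5 differed by at most 0.20 in any pair.

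Replication protein A coats single-stranded DNA, and its 3 genes had a median of -0.00 but did not share a direction. RPA2 was at 28.1, 56.9 and 55.9 in ROCK2 KD and 34.7, 54.6 and 46.7 in Scr shRNA, lower in pair 1 and higher in pairs 2 and 3. RPA1, the large subunit, was at 32.2, 115 and 106 in ROCK2 KD and 32.0, 111 and 104 in Scr shRNA, and it counts as higher in all 3 pairs only by 0.00, 0.05 and 0.00. RPA3, the smallest subunit, was the lowest of the 3 in 6 of 6 libraries and was lower in ROCK2 KD in pair 3 by -0.49.

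FEN1, the flap nuclease that trims Okazaki fragments, is at chr11:61560383-61564710 and was at 43.3, 131 and 110 in ROCK2 KD and 47.0, 144 and 135 in Scr shRNA. It was lower in all 3 pairs, by -0.12, -0.14 and -0.32, with an unadjusted p of 0.0835 and an adjusted p of 0.944 from limma. LIG1, the ligase that seals those fragments, was at 14.8, 34.8 and 26.5 against 13.1, 37.3 and 32.6, higher in pair 1 and lower in the others.

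Fork protection genes split. CLSPN, encoding claspin, which carries the checkpoint signal from the fork to CHK1, is at chr1:36185819-36235579 and was at 4.46, 13.04 and 7.02 in ROCK2 KD and 5.09, 13.9 and 9.41 in Scr shRNA. It was the lower of each pair, by -0.17, -0.08 and -0.39, with limma giving -0.21 (standard error 0.11, unadjusted p = 0.106, adjusted p = 0.957). TIPIN, the partner of TIMELESS in holding a paused fork, is at chr15:66628529-66679084 and was at 17.5, 43.4 and 37.2 in ROCK2 KD and 15.1, 39.2 and 34.3 in Scr shRNA. TIPIN was the largest of the 3 genes higher in every pair, by 0.21, 0.14 and 0.09, with a limma estimate of 0.15 (standard error 0.10, unadjusted p = 0.169, adjusted p = 0.960). TIMELESS itself was higher in pair 1 by 0.20 and within 0.06 in the other pairs, and WDHD1, which ties the helicase to polymerase alpha, was lower in pair 3 by -0.23 and within 0.03 in the other pairs.

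Among the 5 genes of deoxynucleotide supply the median was -0.02. TYMS, thymidylate synthase, is at chr18:657653-673578 and was at 66.4, 174 and 185 in ROCK2 KD and 59.0, 173 and 158 in Scr shRNA. It was higher in ROCK2 KD in pairs 1 and 3, by 0.17 and 0.20, and level in pair 2 at 0.00, and limma gave 0.13 (standard error 0.09, unadjusted p = 0.221, adjusted p = 0.960). Exons of ENOSF1 and TYMSOS overlap TYMS on the other strand, so its value is uncertain in the same way as that of RFC4.

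RRM1, the large subunit of ribonucleotide reductase, was at 26.9, 138 and 107 in ROCK2 KD and 24.4, 126 and 114 in Scr shRNA. RRM2, the small subunit whose level sets the enzyme's activity through the cycle, was at 35.96, 121 and 107 against 40.2, 119 and 123. RRM2 exceeded RRM1 in 4 of 6 libraries, and the ratio of RRM2 to RRM1, 0.87 to 1.65 over all 6, was lower in ROCK2 KD in every pair (by factors of 0.81, 0.92 and 0.93).
TK1, thymidine kinase of the salvage route, was at 31.1, 86.2 and 63.1 in ROCK2 KD and 24.02, 112 and 94.7 in Scr shRNA. TK1 had the widest spread of pair differences here, 0.36, -0.38 and -0.60, around an estimate of -0.20 (standard error 0.18) that was -0.49 without replicate 1 and -0.00 without replicate 3. DUT, which keeps uracil out of DNA, has 8 annotated pseudogenes named after it and ranged from 19.2 to 67.3.

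All 5 genes that copy chromatin and methylation had a fitted difference below 0, with a median of -0.09, and all 5 were lower in pairs 2 and 3. UHRF1, which reads hemimethylated DNA and calls in DNMT1, was at 18.5, 27.2 and 30.3 in ROCK2 KD and 16.5, 33.0 and 43.8 in Scr shRNA. DNMT1, the maintenance methyltransferase, was at 33.3, 84.4 and 64.6 in ROCK2 KD and 26.6, 92.2 and 87.9 in Scr shRNA. Both were higher in ROCK2 KD in pair 1 (0.16 and 0.31) and lower in pair 3 (-0.54 and -0.46), around estimates of -0.21 and -0.09 with standard errors of 0.15 and 0.15, and the estimate of UHRF1 was -0.41 without replicate 1 and -0.05 without replicate 3. CHAF1A, the large subunit of the histone chaperone CAF-1, was lower in all 3 pairs (-0.06, -0.11 and -0.40), and CHAF1B, its partner, and ASF1B, which hands over histones, differed by at most 0.10.

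**Figure D3:**
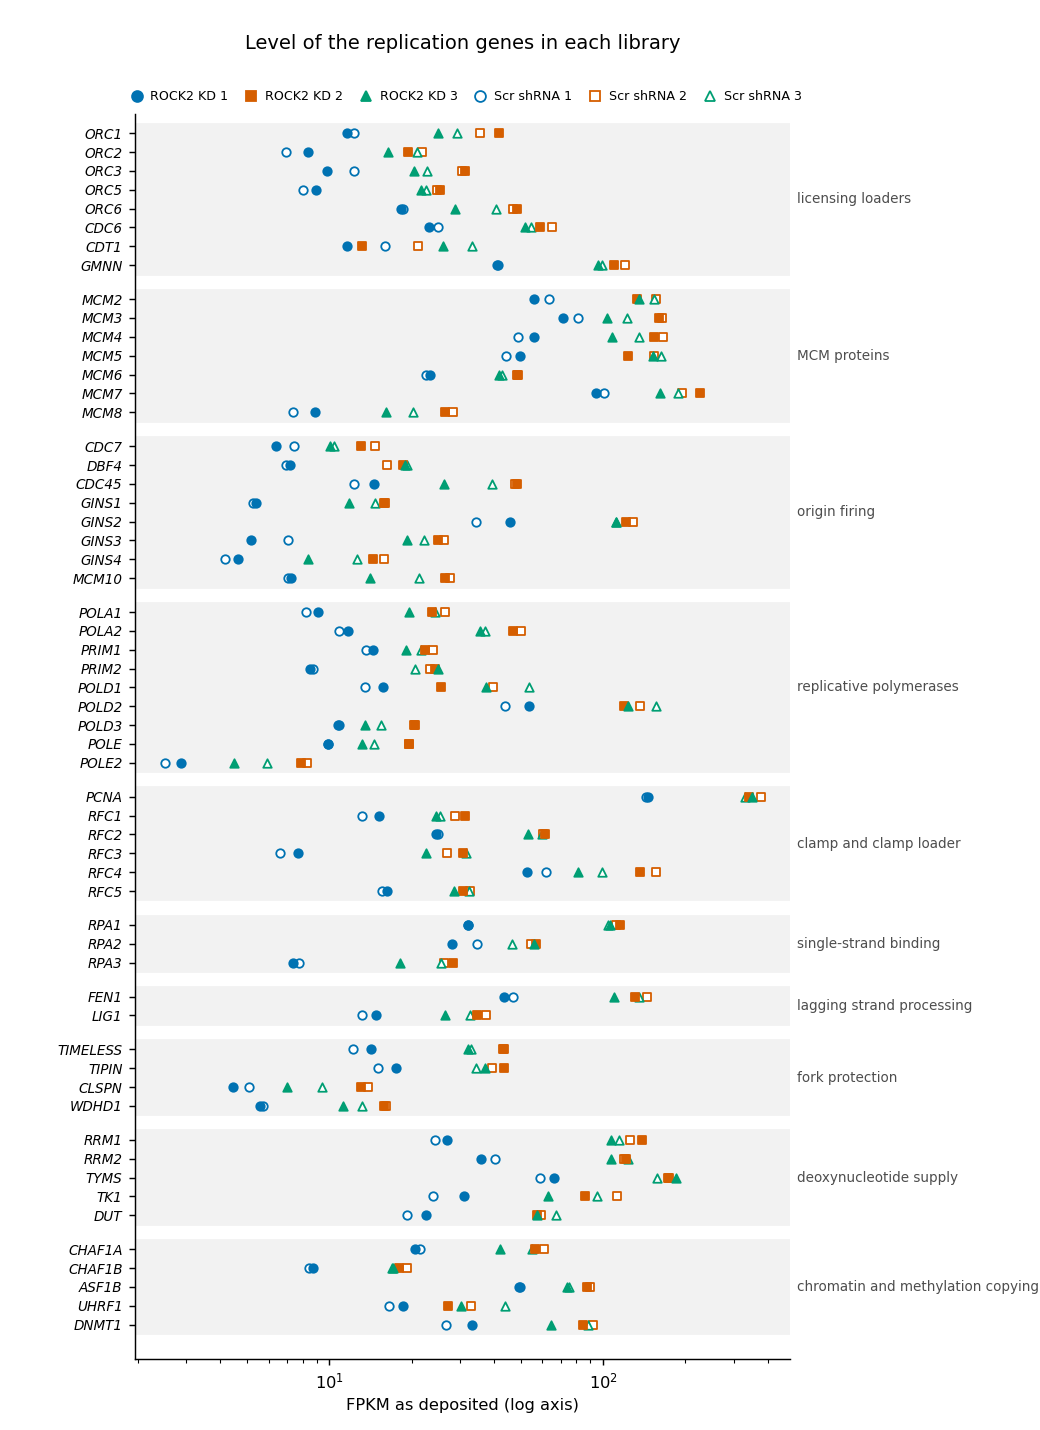
FPKM as deposited, on a log axis, for each of the 57 genes in the 6 libraries, with genes grouped by role on the vertical axis. Filled points are ROCK2 KD and open points Scr shRNA libraries, and colour and shape give the replicate number. Libraries numbered 1 lie to the left of all others for most genes, and libraries of the same number lie close together whatever the shRNA. These values are not scaled to a common level. The FPKM of all symbols summed to 217309 in ROCK2 KD 1 and 208289 in Scr 1, against 438262 to 480612 in the other libraries.

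PCNA had the highest mean scaled FPKM over the 6 libraries (263), followed by MCM7 (153), TYMS (126), MCM3 (113), MCM2 (109), MCM5 (105) and MCM4 (103), and the order of the genes after PCNA varied between libraries. CLSPN (8.27) and POLE2 (4.97) were the lowest, and the 57 genes lay between the percentiles 31.1 and 98.4 of all genes tested.

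The replicate number separated these genes far more than the shRNA did. On the scaled values, averaged over both groups, libraries numbered 2 were above those numbered 1 for 52 of 57 genes (median 0.58) and libraries numbered 3 above those numbered 1 for 48 (median 0.41), where all genes had medians of -0.02 and 0.02. Libraries numbered 3 were above those numbered 2 for 9 genes (median -0.17, all genes 0.01). A limma F test over the replicate numbers, added after seeing the data, passed an adjusted p of 0.05 for 42 of 57 genes (73.7%, background 48.7%). The SD between the 3 replicate means exceeded the size of the fitted ROCK2 KD difference in 55 of 57 genes, with a median SD of 0.33 against a median size of 0.09. Over all genes it did so in 9046 of 10526, with medians of 0.27 and 0.09, so that this is common among the genes tested. With median scaling the first 2 medians were 0.62 and 0.46, and with no scaling 1.37 and 1.17, where all genes shifted by 0.71 and 0.70.

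RRM1 had the largest SD between replicate means of the set (0.81), with a mean scaled FPKM of 37.6, 107 and 93.4 in replicates 1, 2 and 3, and RFC3 (10.5, 23.4 and 22.9), POLA2 (16.6, 39.2 and 30.5) and GINS3 (8.97, 20.7 and 17.5) came after it with SDs of 0.62, 0.62 and 0.60. CDT1 went against the set: its mean scaled FPKM was 20.3, 13.9 and 25.02, the lowest in replicate 2, where 52 of 57 genes were above replicate 1. PRIM1, RPA2, ASF1B and UHRF1 were the other genes lower in replicate 2 than in replicate 1. What the numbers stand for (a day, a passage or a preparation) is not given in the sources used here, and its part was not tested.

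**Figure D4:**
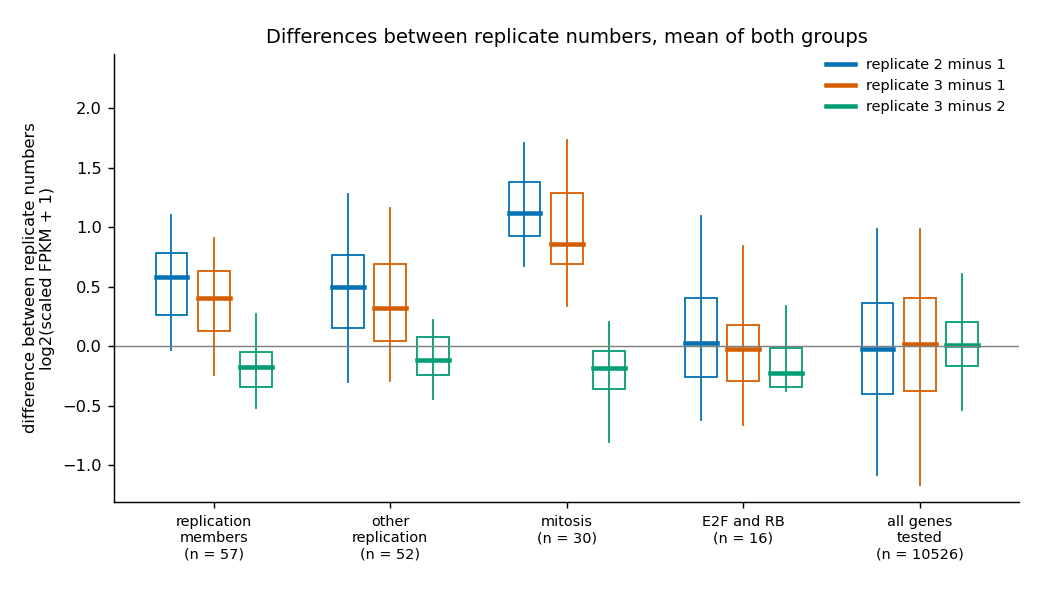
Differences between replicate numbers, averaged over ROCK2 KD and Scr shRNA, in log2(scaled FPKM + 1) on the vertical axis, for the 57 replication genes, other lists and all genes tested. Boxes span the middle 50% of genes, thick lines are medians and thin lines reach from the 5th to the 95th percentile; the replication genes have medians of 0.58, 0.41 and -0.17 and the mitosis genes of 1.12, 0.86 and -0.18.

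Other genes of the same process, listed by role and not by how they moved, were all above the filter. Of 52 such genes, 33 were lower (63.5%, background 51.3%), with a median of -0.05, and 3 (of 52, background 5.39%) had an unadjusted p under 0.05 from limma, RECQL4, TONSL and RNASEH2B. The lower values came mostly from pair 3: the pair medians were 0.07, -0.00 and -0.16, with 30.8%, 50% and 73.1% of the genes lower. Without replicate 3 the medians of the other licensing and firing genes and of the other deoxynucleotide supply genes were above 0 (0.0158 and 0.12, against -0.05 and -0.03 with all libraries). Genes lower in all 3 pairs were 2 of 52 (3.85%, background 12.3%), DTL and DBF4B, and genes higher in all 3 were 5 of 52 (9.62%, background 12.7%), ORC4, MCM9, RNASEH2B, ASF1A and HAT1. DTL, which directs CDT1 to destruction in S phase, was at 9.82, 20.1 and 16.3 in ROCK2 KD and 11.5, 21.2 and 18.2 in Scr shRNA (estimate -0.15), so that CDT1 and its ligase receptor were both the lower of each pair. DBF4B, a relative of DBF4, was at 4.23, 9.71 and 7.95 in ROCK2 KD and 4.73, 10.5 and 8.45 in Scr shRNA, again a small step in each pair. Of the genes higher in each pair, MCM9, the partner of MCM8, was at 1.04, 2.05 and 1.71 in ROCK2 KD and 1.03, 1.80 and 1.41 in Scr shRNA. The histone acetyltransferase HAT1 was at 12.4, 43.3 and 36.6 in ROCK2 KD and 11.03, 42.5 and 35.8 in Scr shRNA, and the histone chaperone ASF1A at 6.36, 17.9 and 16.9 against 5.97, 17.2 and 16.3. For MCM9, HAT1 and ASF1A the groups overlapped, with estimates of 0.09, 0.07 and 0.06. RNASEH2B, a subunit of the nuclease that removes ribonucleotides from DNA, was at 22.6, 39.9 and 56.1 in ROCK2 KD and 18.7, 35.9 and 41.9 in Scr shRNA, higher in every pair, with an estimate of 0.27 (standard error 0.10, unadjusted p = 0.0340, adjusted p = 0.903 from limma). RECQL4 and TONSL, a helicase of origin firing and a reader of new histones, had estimates of -0.63 and -0.49 but were higher in ROCK2 KD in pair 1 (0.13 and 0.04); they were chosen after their values were seen.

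In the mitosis list, which reports on cells past S phase, 12 of 30 were lower (40%, background 51.3%), the median was 0.04, none reached an unadjusted p of 0.05 in limma (0 of 30, background 5.39%, and 0 at the adjusted threshold), and the pair medians were 0.17, 0.04 and -0.12. Without replicate 1 the median of the list was -0.04, so that its sign rests on that pair. CENPA, the centromere histone, was at an FPKM of 4.25, 20.2 and 21.7 in ROCK2 KD and 2.996, 19.1 and 18.04 in Scr shRNA, higher in each pair by 0.42, 0.08 and 0.23. CCNB1, cyclin B1, was at 15.1, 96.1 and 88.5 against 12.3, 92.3 and 86.7, higher by 0.27, 0.06 and 0.01. KIF23, a kinesin of the dividing cell's midzone, was at 6.64, 16.9 and 13.9 against 5.83, 15.2 and 13.3, also the higher of each pair by a small step. Of the 30 genes, 5 were higher in all 3 pairs (16.7%, background 12.7%). Lower in all 3 was 1 gene (3.33%, background 12.3%), CDC20, by -0.04, -0.07 and -0.21. The order of the 3 pairs was the same as for the replication genes, from highest to lowest, and the difference between the lists was not tested. The replicate step was larger still in this list, with all 30 genes above replicate 1 in replicates 2 and 3. The scaled FPKM of CCNB1 was 22.1 and 18.1 in the libraries numbered 1 (ROCK2 KD and Scr shRNA) and 77.7 and 74.6 in those numbered 2.

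**Figure D5:**
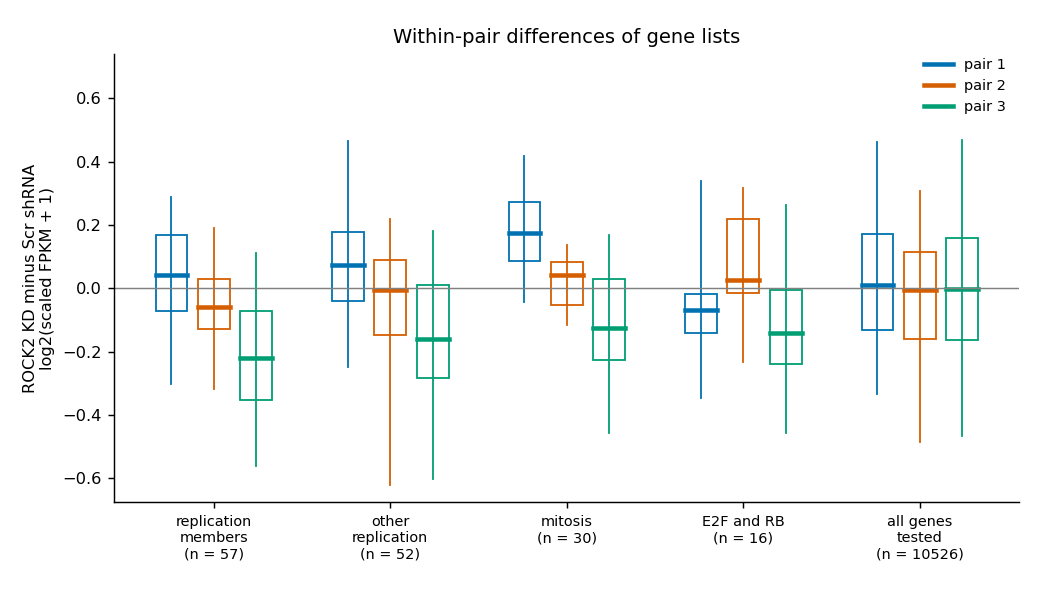
Differences between ROCK2 KD and Scr shRNA within each pair, in log2(scaled FPKM + 1) on the vertical axis, for the 57 replication genes, other replication genes, mitosis genes, E2F and RB genes and all genes tested. Boxes span the middle 50% of genes, thick lines are medians and thin lines reach from the 5th to the 95th percentile; the medians of the replication genes are 0.04, -0.06 and -0.22, and those of all genes lie within 0.02 of 0.

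E2F and RB family genes, the transcriptional control of the set, were lower for 9 of 16 (56.2%, background 51.3%), with a median of -0.04 and pair medians of -0.07, 0.03 and -0.14. Without replicate 1 the median was 0.0611, so that its sign, too, rests on 1 pair. E2F1, an activator of replication genes, was at an FPKM of 10.7, 20.5 and 13.5 in ROCK2 KD and 11.5, 24.3 and 19.4 in Scr shRNA, lower in all 3 pairs (-0.10, -0.23 and -0.50), with an estimate of -0.28 (standard error 0.12, unadjusted p = 0.0491, adjusted p = 0.909 from limma). It, too, is a gene that the study singled out on these samples.

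Base composition moved with the differences. Across the 57 genes the fitted difference and the GC content of the gene had r = -0.43 (all genes -0.23), and by pair r was 0.06, -0.55 and -0.32 (all genes 0.07, -0.38 and -0.08), a description over genes that share libraries. By rank, Spearman's rho was -0.28 (all genes -0.27), and in pair 2 it was -0.38 (all genes -0.43). With each library corrected for GC content before the same fit, 46 of 57 genes were lower, the median was -0.09, and CDT1 and RFC4 had estimates of -0.38 and -0.26.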

How the data were processed

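The authors made RNA-seq libraries of U2932 cells, 3 ROCK2 KD and 3 Scr shRNA, aligned them with STAR to hg19 and computed FPKM with Cufflinks (tools and build per the submitters' notes). The deposited FPKM, 20667 gene symbols a library, hold no counts, so no count test was run. Libraries were brought to a common scale by trimmed log ratios to Scr 3, centred over the 6 libraries (0.3 of the ratios and 0.05 of the levels trimmed), which moves the libraries numbered 1 the most, and log2(scaled FPKM + 1) was fitted by limma (3.58.1, R 4.3.3) on the group and the replicate number, the latter as a block, with a variance trend and Benjamini-Hochberg adjustment over 10526 genes. A pseudocount of 1 understates changes of low genes. The labels number both groups 1 to 3, and same-numbered libraries deviated together (r = 0.848, 0.784 and 0.737 across genes). All tests were two-sided, and the precision is limited by 3 libraries a group and a depth that FPKM do not state. The fit was tested on simulated data.

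The members, role groups and other lists were chosen with earlier results of these data known. Every member may be named; values in every library are given for 24 fixed members and for the 5 largest rises and falls among members of 1 direction in all 3 pairs, of which 3 rises were found, and for up to 3 such genes of each other list. Positions and overlapping genes are from GENCODE 44 lifted to GRCh37, promoters from RefSeq (GRCh38.p14), placed on GRCh37 by exact match, for 51 of 57 members. Annotation, strandedness and the treatment of multi-mapping reads are not given in the sources used here; exons of 10 members overlap a gene on the opposite strand, 4 on the same strand, and 13 members have pseudogenes named after them. Alternatives were the fit without the block, ComBat followed by limma, 2 filters, a pseudocount of 0.1, 2 scalings, no variance trend, each replicate left out and, added after seeing the data, a GC correction with the block (loess, span 0.3). Python 3.11.15, pandas 2.3.3 and matplotlib 3.10.9 served for the summaries and plots.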

Additional observations from a re-analysis of the deposited data

How the results depend on the processing

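The count of members below 0 stayed between 44 and 49 of 57 in all alternatives but 1, the fit without replicate 3, which gave 26 (lowest 26, highest 49 over the fits with a replicate left out). Without the replicate block the fold changes are the same by construction, and 0 members and 30 of all genes had an unadjusted p under 0.05 from limma, against 2 and 567 with it; 0 genes had an adjusted p under 0.05 with or without the block. ComBat followed by limma without the block called 297 genes (2112 at an unadjusted p), 137 of them lower (1.3% of genes tested), and 3 members, CDT1, MCM2 and RFC4 (5.26%), with 12 members at an unadjusted p under 0.05. That fit does not count the degrees of freedom spent on the replicate numbers, so its p values are too small. Without the variance trend, 1 of 57 members and 571 of 10526 genes had an unadjusted p under 0.05. With each replicate left out, all genes gave 0 to 15 calls at the adjusted threshold (15 without replicate 1, 1 without replicate 2) and 390 to 897 at the unadjusted one, and the members gave 1 to 4 unadjusted and 0 adjusted calls. Role group medians ranged from -0.26 to 0.0923 over these fits, the lowest without replicate 1 for chromatin copying and the highest without replicate 3 for deoxynucleotide supply, and the mitosis median from -0.041 to 0.112. The median of the E2F and RB list ranged from -0.13 without replicate 2 to 0.0611 without replicate 1.

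Of 27 members with values in every library, the sign changed without replicate 3 for ORC1 (-0.16 to 0.0714 over the fits with a replicate left out), MCM7 (-0.17 to 0.0598), CDC45 (-0.29 to 0.13), POLE (-0.0835 to 0.00414), LIG1 (-0.21 to 0.0379) and DNMT1 (-0.29 to 0.10), without replicate 1 for GINS2 (-0.0482 to 0.20) and RPA2 (-0.11 to 0.14), and without replicate 2 for DBF4 (-0.00315 to 0.12) and PCNA (-0.0536 to 0.0461). RPA2, at -0.00, was 0.00204 with ComBat and 0.00631 with no further scaling. No other sign among these 27 changed in the 12 alternatives, although TK1 (-0.49 to -0.000798), UHRF1 (-0.41 to -0.0479) and POLA1 (-0.24 to -0.0058) came close to 0 without replicate 3. The cause was not tested.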
